A study of Mus musculus with 2 samples.

Results

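The genes described here are the 7 mouse genes of the platelet-derived growth factor (PDGF) system, chosen by name from the 44291 genes measured in each library. They are the receptor kinases Pdgfra and Pdgfrb, the receptor-like gene Pdgfrl, and the ligands Pdgfa, Pdgfb, Pdgfc and Pdgfd. RNA-seq was performed on primary fibro-adipogenic progenitors (FAPs) of WT genotype. FAPs are stromal progenitors of skeletal muscle from which intramuscular fat can form. Per the methods of the study, FAPs were sorted from the hind limb muscles of C57BL/6 mice aged 6 to 8 weeks, and how many mice went into each culture is not stated. One group was treated by PRP, that is platelet-rich plasma, and the other by vehicle as control, and both were then induced with insulin (10 µg/ml), dexamethasone (0.25 µM) and IBMX (0.5 mM) in DMEM with FBS (20%). The label of the sample says PRP, while the text of the study describes exosomes from the PRP of young human donors. There was 1 library per group, so each difference below has no replicate check and no p-value. Of the 7 genes, 5 had a mean FPKM (fragments per kilobase of exon, scaled to the depth of the library) of at least 1 over the 2 libraries, the minimum set for counting a difference.

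PDGFs are dimeric growth factors that platelets store in their granules and release when they are activated. PDGF-A and PDGF-B are cut inside the cell, while PDGF-C and PDGF-D are secreted as latent chains whose CUB domain has to be removed by proteases outside the cell. PDGF-A and PDGF-C bind the α-receptor, PDGF-D mainly binds the β-receptor, and PDGF-B binds both. Binding pairs the receptors, which phosphorylate each other and recruit SRC, PI3-kinase, PLCγ and the adaptors of the RAS-ERK cascade. In skeletal muscle the α-receptor (CD140a) marks FAPs, and the β-receptor is carried by pericytes, smooth muscle cells and also by mesenchymal progenitors.

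The study names the human forms of let-7f-5p, miR-16-5p and miR-126-3p as microRNAs of the exosomes. The human sequences were not compared here. Sequences of the mouse forms are shown with the seed (bases 2 to 8) in capitals, as listed by RefSeq (GRCm38.p6).
mmu-let-7f-5p: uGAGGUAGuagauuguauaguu
mmu-miR-16-5p: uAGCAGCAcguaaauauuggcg
mmu-miR-126a-3p: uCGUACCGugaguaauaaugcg
The 3 seeds differ, and each would pair with its own 7-base match in a transcript, which is CTACCTC for let-7, TGCTGCT for miR-16 and CGGTACG for miR-126. The longest 3'UTR of each PDGF gene in GENCODE release M21 was searched on the transcribed strand. These 3'UTRs were between 282 bases (Pdgfrl) and 3115 bases (Pdgfra) long. Both receptor kinases, Pdgfrl, Pdgfa, Pdgfc and Pdgfd held none of the 3 matches. Pdgfb held 1 let-7 match, at base 641 of its 3'UTR of 1408 bases (GRCm38, chr15:79996635-79996641, minus strand).
Pdgfb, let-7 match in capitals: ggttcatttctCTACCTCcactctgt
Pdgfb was the member that was hardly read in either library, as given below. Among 10287 genes that had a 3'UTR and passed the minimum, 9.85% held the let-7 match, 24.6% the miR-16 match and 0.175% the miR-126 match. A missing 7-base match says only that these letters are not in these 3'UTRs.

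The promoters of Pdgfra and Pdgfc are shown because these genes were the most different members past the minimum in either direction (250 bases before the RefSeq start, GRCm38.p6, plus strand).
Pdgfra, chr5:75152001-75152250: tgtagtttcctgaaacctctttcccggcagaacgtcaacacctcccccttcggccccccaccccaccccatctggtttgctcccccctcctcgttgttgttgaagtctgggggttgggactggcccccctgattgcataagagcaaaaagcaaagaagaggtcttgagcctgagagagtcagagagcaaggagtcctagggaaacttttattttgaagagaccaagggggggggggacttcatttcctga
Pdgfc, chr3:81036166-81036415: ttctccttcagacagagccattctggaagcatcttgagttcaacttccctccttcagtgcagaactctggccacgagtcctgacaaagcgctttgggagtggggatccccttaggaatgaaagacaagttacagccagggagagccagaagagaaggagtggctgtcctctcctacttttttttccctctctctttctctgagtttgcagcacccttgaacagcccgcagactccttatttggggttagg
They were searched on both strands for the AP-1 motif (TGANTCA) and for the GC box (GGGCGG), which do not overlap each other in letters. Neither window held a match, which says nothing about the factors. Of 32851 RefSeq promoter windows of this length, 6.75% held the AP-1 motif and 32.7% the GC box. The GC content was 54.4% before Pdgfra and 50.8% before Pdgfc, beside a median of 52.4% over all windows. Pdgfa has 2 listed starts, with a GC content of 66.4% and 72.4%, with 1 and 2 GC boxes and with no AP-1 motif. Both of these windows lie within the annotated span of Pdgfa, and they are not printed.

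The order of the 7 genes by level was the same in both libraries. Pdgfrb was the most abundant, with 68.5 FPKM with PRP and 88.7 FPKM in the control, above 94.1% and 95.5% of the 13401 genes past the minimum. Pdgfra followed, and then the ligands Pdgfd, Pdgfa and Pdgfc, the receptor-like gene Pdgfrl and the ligand Pdgfb. Neighbours in this order were separated by more than their counting intervals in each case but 1, since the intervals of Pdgfc and Pdgfrl overlapped in the control library. The PRP library held 40120843 assigned reads and the control library 34139741. These exact 95% intervals (Poisson for a level, Clopper-Pearson for a ratio) rest on the fragments recovered from the FPKM values, cover counting error only and describe 2 libraries rather than 2 treatments.

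**Figure D1:**
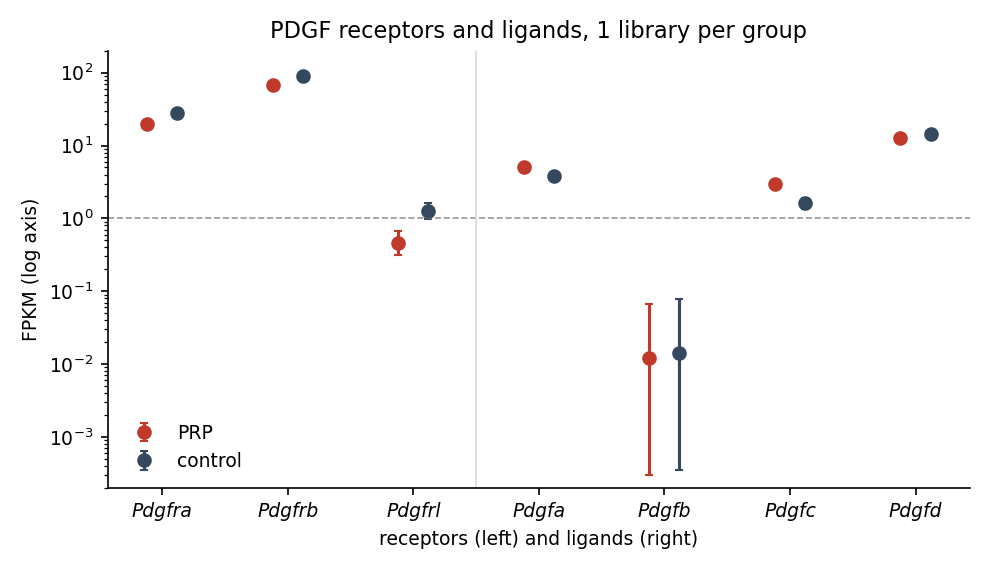
FPKM of the 7 PDGF genes (log axis) in the PRP library (red) and the control library (dark blue), with receptors on the left and ligands on the right. Points are single libraries, bars are exact 95% Poisson intervals of the counting error (most are smaller than the point), and the dashed line marks 1 FPKM. Pdgfrb is highest at 68.5 and 88.7 FPKM, and Pdgfb lies near 0.01 FPKM in both libraries with wide intervals.

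Both receptor kinases were lower in the PRP library, with Pdgfra slightly more so than Pdgfrb. Pdgfra (ENSMUSG00000029231, GRCm38 chr5:75152292-75198215, plus strand), the α-receptor, had 19.8 FPKM with PRP and 28.0 FPKM in the control, from 7977 and 9566 reads. The ratio of PRP over control was 0.710 (95% interval 0.680 to 0.740), that is 1.41-fold lower, and the difference of log2(FPKM + 1) was -0.47. Of the genes past the minimum, 7.45% had a lower difference than Pdgfra. An antibody to the α-receptor is in the reagent list of the study, so this receptor may have served to sort the cells. Whether the cells of both groups came from the same sort is not stated. Within bulk RNA, fewer cells that express a gene and less RNA per cell cannot be told apart. Pdgfra overlaps the antisense genes Gm42802 (2.02 against 3.85 FPKM) and Gm42803 (1.27 against 0.714 FPKM) and, on its own strand, the microRNA gene Mir7025 (10.8 against 20.98 FPKM). Reads of the sense overlap cannot be told apart under any strand setting, and the setting of the counting is not given in the sources used here. The overlapped part is 6.50% of the exon length of Pdgfra.

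Pdgfrb (ENSMUSG00000024620, GRCm38 chr18:61045150-61085061, plus strand), the β-receptor, rested on 15066 reads with PRP and 16585 reads in the control. Its ratio was 0.773 (95% interval 0.749 to 0.798), that is 1.29-fold lower, with a log2 difference of -0.37. Of the genes past the minimum, 11.5% had a lower difference. Pdgfrb stood at 3.46 times the level of Pdgfra with PRP and at 3.17 times in the control. The ratio of these ratios, which does not depend on the scaling of the libraries, was 1.09 (exact conditional 95% interval 1.03 to 1.15). The summed level of both kinases was 88.4 FPKM against 116.6 FPKM, a ratio of 0.758, and Pdgfra made up 22.4% and 24.0% of it. The balance of both receptors therefore differed far less between the libraries than their sum.

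Pdgfrl (ENSMUSG00000031595, GRCm38 chr8:40926212-40990785, plus strand) encodes a protein that resembles the extracellular part of the receptors and has no kinase domain. It had 0.462 FPKM with PRP and 1.27 FPKM in the control. With a mean of 0.868 FPKM it stayed under the minimum, and its values rest on only 58 and 136 reads. The ratio was 0.363 (95% interval 0.226 to 0.568), the lowest of the family, and the log2 difference was -0.64. Relative to Pdgfra its level was lower in the PRP library, with a ratio of ratios of 0.511 (0.319 to 0.803).

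The genes that mark FAPs moved in the same direction as both receptors. Of 8 FAP markers 7 passed the minimum, and all 7 were lower in the PRP library. Each had an interval below 1, as had 26.1% of the 12368 genes with whole reads. Their median log2 difference was -0.79 beside 0.01 over all genes. Their summed level was 316 FPKM with PRP and 542 FPKM in the control. The lowest ratios were those of Dpt (18.8 against 50.2 FPKM, ratio 0.374), which encodes the matrix protein dermatopontin, and of the fibrillar collagen genes Col3a1 (26.9 against 53.7 FPKM, 0.501) and Col1a1 (119 against 219 FPKM, 0.542). Gsn had 79.6 against 139 FPKM (0.574). The other markers past the minimum differed less. Ly6a, which encodes the surface antigen Sca-1, had 59.9 against 66.4 FPKM (0.902). Dcn stood at 7.54 against 8.36 FPKM (0.901) and Cd34 at 4.76 against 6.10 FPKM (0.780). Lum, which encodes the proteoglycan lumican, was near 0 (0.0815 and 0.0718 FPKM). This list was drawn up with earlier results of these data known, so its counts are descriptive only. The part of these markers in the difference of the receptors was not tested.

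Mural cells also carry the β-receptor, and their markers other than Myh11 were near or under the minimum. Of 8 mural markers 2 passed it, Myh11 and Cspg4 (0.932 against 1.08 FPKM). Mcam had 0.871 and 0.761 FPKM, Notch3 0.792 and 0.974 FPKM, Rgs5 0.285 and 0.296 FPKM and Abcc9 0.0863 and 0.133 FPKM. Kcnj8 had 4 and 2 reads, and Higd1b was at 0 in both libraries. The summed level was 19.7 FPKM against 13.1 FPKM, most of it from Myh11 (16.7 against 9.86 FPKM, ratio 1.69), which encodes a smooth muscle myosin. Of 6 endothelial markers Kdr and Tek passed the minimum, while Pecam1 had 0.188 and 0.0470 FPKM and Cdh5 0.0949 and 0.0976 FPKM. The endothelial sum was 9.45 FPKM against 5.40 FPKM. Of 6 macrophage markers Cd68 (4.56 against 2.31 FPKM) and Lyz2 (4.91 against 7.57 FPKM) passed, Ptprc had 8 and 12 reads, and the sum was 10.3 FPKM against 10.6 FPKM. No myogenic marker passed, Pax7 and Myog were at 0 in both libraries, and the sum was 0.692 FPKM against 1.19 FPKM. The 6 adipocyte markers all passed, with a median log2 difference of 0.10 and sums of 73.2 FPKM against 62.7 FPKM.

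Among the ligands, Pdgfa and Pdgfc were higher in the PRP library, while Pdgfd was slightly lower. Pdgfc (ENSMUSG00000028019, GRCm38 chr3:81036416-81214040, plus strand), a latent ligand of the α-receptor, had 2.94 FPKM with PRP and 1.61 FPKM in the control. These values rest on 601 and 279 reads. The ratio was 1.83 (95% interval 1.49 to 2.26), the highest of the family, and the log2 difference of 0.60 exceeded that of 94.2% of the genes past the minimum. The antisense gene Gm16000, which overlaps 2.89% of the exon length of Pdgfc, was also higher (10.1 against 6.49 FPKM).

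Pdgfa (ENSMUSG00000025856, GRCm38 chr5:138976014-138997370, minus strand), the classical ligand of the α-receptor, had 5.09 FPKM with PRP and 3.79 FPKM in the control, from 637 and 404 reads. The ratio was 1.34 (95% interval 1.12 to 1.61) and the log2 difference 0.35, above that of 85.2% of the genes past the minimum. Pdgfa shares 26.1% of its exon length with the antisense gene 6330403L08Rik (0.903 against 1.01 FPKM), and without the strand setting of the counting the reads of this part cannot be told apart. Relative to Pdgfa, Pdgfc was higher in the PRP library, with a ratio of ratios of 1.37 (1.04 to 1.81). Set against their receptor Pdgfra, Pdgfa was 1.89 times (1.57 to 2.27) and Pdgfc 2.58 times (2.10 to 3.20) as high in the PRP library as in the control library.

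Pdgfd (ENSMUSG00000032006, GRCm38 chr9:6168584-6378850, plus strand), a latent ligand of the β-receptor, was the most abundant ligand, with 12.7 FPKM with PRP and 14.2 FPKM in the control. From 1608 and 1528 reads, the ratio was 0.895 (95% interval 0.810 to 0.990), close to no difference, and the log2 difference was -0.15. Of the genes past the minimum, 29.6% had a lower difference. Relative to Pdgfd, Pdgfc was 2.05 times as high in the PRP library as in the control library (1.63 to 2.59), and relative to Pdgfrb, Pdgfd was 1.16 times as high (1.04 to 1.29).

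Pdgfb (ENSMUSG00000000489, GRCm38 chr15:79995874-80014977, minus strand), the B chain that is known from platelets and endothelium, had 2 reads in each library (0.0120 and 0.0141 FPKM). At this depth the upper bounds of its level were 0.0667 and 0.0784 FPKM, and no fold is given. None of 6 platelet markers passed the minimum, and Ppbp and Gp9 were at 0 in both libraries. The summed level of the 6 markers was 1.56 FPKM against 1.40 FPKM. Most of it came from Gp1ba (0.917 against 1.03 FPKM) and Itga2b (0.567 against 0.365 FPKM). The PRP of the study came from human donors, while reads were mapped to the mouse genome. The values of these mouse genes therefore do not measure human platelet RNA.

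The summed level of the 4 ligands was alike in both libraries, but its make-up was not. The sum was 20.8 FPKM with PRP and 19.6 FPKM in the control, a ratio of 1.06. Pdgfd made up 61.2% of it with PRP and 72.4% in the control. The share of Pdgfa was 24.5% against 19.4%, that of Pdgfc 14.2% against 8.19% and that of Pdgfb 0.0577% against 0.0718%. The ligands of the α-receptor, Pdgfa and Pdgfc, summed to 8.03 FPKM against 5.40 FPKM, a ratio of 1.49. As the receptor sum was lower, the kinases stood at 4.26 times the ligands with PRP and at 5.95 times in the control.

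**Figure D2:**
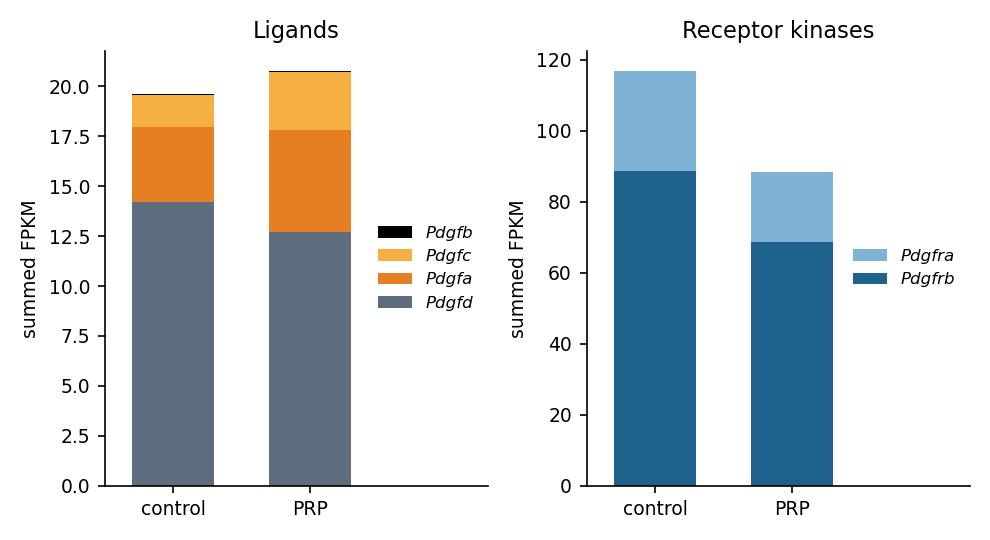
Stacked FPKM of the 4 ligands (left) and of both receptor kinases (right) in the control and PRP libraries, on linear axes that start at 0, 1 library per bar and without error bars. The ligand bars reach 19.6 and 20.8 FPKM with a smaller part from Pdgfd in the PRP library, and the receptor bars reach 116.6 and 88.4 FPKM.

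Read against all genes, the differences of the PDGF genes were of moderate size. Of the 5 members past the minimum, 0 were at least 2-fold higher and 0 at least 2-fold lower on the log2(FPKM + 1) scale, where 2.00% and 0.828% of all 13401 genes were. At 1.5-fold, Pdgfc was the 1 member that was higher and 0 were lower, beside 6.15% and 4.57% of all genes. By counting intervals, 2 of the 5 members lay above 1 (Pdgfa and Pdgfc) and 3 below 1 (Pdgfra, Pdgfrb and Pdgfd), where 26.1% of the 12368 genes with whole reads lay above and 26.1% below. At this depth an interval without 1 was thus common among genes. The median absolute log2 difference of the 5 members was 0.37, beside 0.20 over all genes.

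For both receptors, the protein-coding genes with the most similar levels in the 2 libraries were searched, by the distance of log2(FPKM + 1). They were Cemip (20.2 against 28.6 FPKM) and Rhoq (19.6 against 26.9 FPKM) for Pdgfra, and Fkbp2 (67.7 against 87.3 FPKM) and Usp8 (72.4 against 88.0 FPKM) for Pdgfrb. A likeness over 2 libraries is only a likeness of 2 values.

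The proteins that cut, hold or bind the ligands outside the cell were next examined. Of 13 such genes 11 passed the minimum, of which 2 were higher and 9 lower, with a median log2 difference of -0.23. None was at least 2-fold different, where 2.00% of all genes were higher and 0.828% lower. The interval lay above 1 for 2 and below 1 for 6, beside 26.1% of all genes with whole reads in each direction. The plasminogen activators can activate the latent ligands. Plaur, which encodes the urokinase receptor, had 14.4 FPKM with PRP and 7.23 FPKM in the control (ratio 1.99, 95% interval 1.75 to 2.28). The proteases themselves differed little, as tPA (Plat) had 7.01 FPKM against 7.66 FPKM and urokinase (Plau) 13.7 FPKM against 13.9 FPKM, both with intervals that held 1. Furin, a convertase that cuts PDGF-A and PDGF-B, had 3.17 FPKM against 4.78 FPKM (0.662, 0.593 to 0.739). Of the 2 neuropilin genes in the list, Nrp2 had 32.1 FPKM against 48.3 FPKM (0.664, 0.644 to 0.684). Nrp1 differed less, with 6.51 FPKM against 8.22 FPKM (0.792, 0.733 to 0.855).

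The intracellular part of the pathway showed no common direction. Of 22 receptor adaptors and enzymes, all past the minimum, 12 were higher and 10 lower with a median of 0.02, and the interval lay above 1 for 7 and below 1 for 9. None of them differed by 1.5-fold on the log2(FPKM + 1) scale. Of 12 genes of the RAS-ERK and AKT cascade 5 were higher and 7 lower (median -0.10), with 2 intervals above and 5 below 1. Mapk3, which encodes the kinase ERK1, was the 1 gene of this list past 1.5-fold, with 13.7 FPKM with PRP and 24.0 FPKM in the control (ratio 0.572, 95% interval 0.516 to 0.634). Of 6 phosphatases and ubiquitin ligases that act on the receptors, 2 were higher and 4 lower (median -0.03), with 1 interval above and 2 below 1 among 5 genes with whole reads. Beside the counts of these lists, 26.1% of all genes with whole reads lay above 1 and 26.1% below. At 1.5-fold, 6.15% of all genes were higher and 4.57% lower.

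Genes that PDGF is known to induce within hours were higher in the PRP library. Of 17 such genes 13 passed the minimum, of which 12 were higher and 1 lower, with a median log2 difference of 0.63 beside 0.01 over all genes. At least 2-fold higher were 4 of the 13, beside 2.00% of all genes. Among 12 genes with whole reads 11 intervals lay above 1 and 0 below, beside 26.1% of all such genes in each direction. Cxcl1, which encodes a neutrophil chemokine, had 34.2 FPKM with PRP and 5.06 FPKM in the control (ratio 6.75, 95% interval 5.73 to 8.004). Fosl1, which encodes an AP-1 subunit, had 61.6 FPKM against 22.6 FPKM (2.72, 2.51 to 2.95), with 57.2% of its exon length shared with other genes. Atf3, which encodes a stress-induced transcription factor, had 12.0 FPKM against 5.14 FPKM (2.33, 1.97 to 2.77). The methods of the study give no sampling time for these libraries, so the values cannot be read as a response within hours. Many stimuli other than PDGF, serum included, induce the genes of this list, and the list does not single out PDGF. It was also drawn up with earlier results of these data known, so its counts are descriptive only. The 1 lower gene was Srf (6.94 against 7.16 FPKM), the serum response factor, whose interval held 1.

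**Figure D3:**
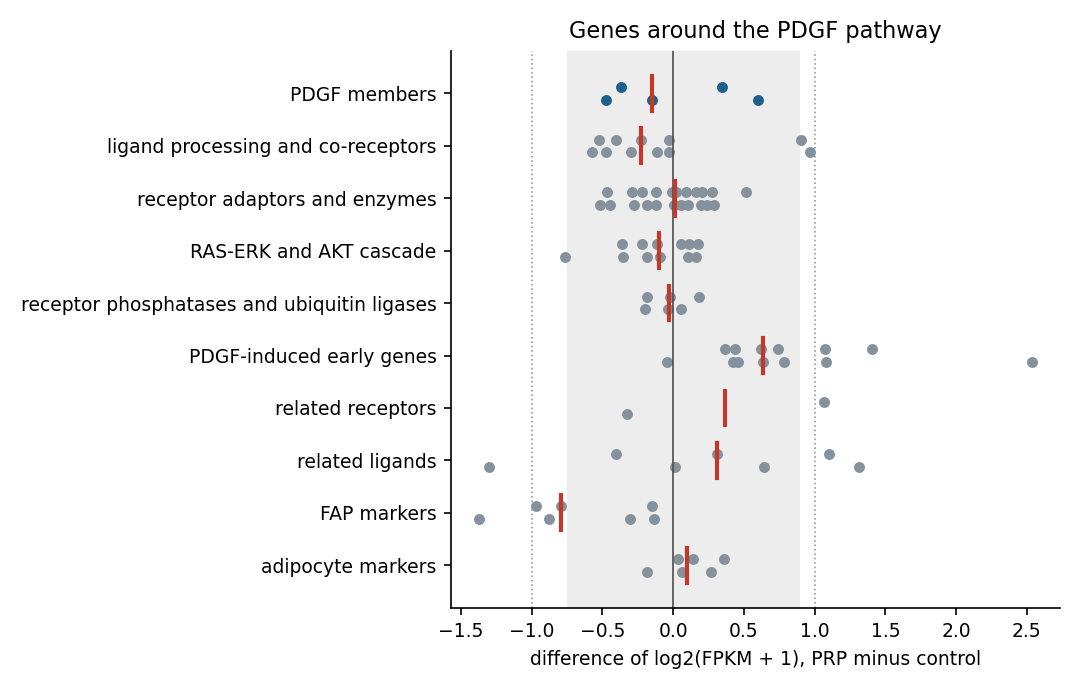
Difference of log2(FPKM + 1), PRP minus control, for each gene past the minimum (points, staggered only to separate them) in 10 lists, with PDGF genes in blue and list medians as red bars. The grey band holds the central 95% of all 13401 genes (-0.74 to 0.89) and the dotted lines mark 2-fold. The 5 PDGF genes lie inside the band, the early genes centre on 0.63 and the FAP markers on -0.79.

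The related receptor kinases (KIT, CSF1R, FLT3 and the VEGF receptors) and their ligands served as the nearest comparison. Of 14 genes 9 passed the minimum, of which 3 were at least 2-fold higher and 1 lower, where the PDGF genes had none and 2.00% and 0.828% of all genes were. The median absolute log2 difference was 0.64, beside 0.37 for the PDGF genes. Whether both families differ beyond chance was not tested. Kdr, which encodes VEGF receptor 2, had 4.23 FPKM with PRP and 1.499 FPKM in the control (ratio 2.82, 95% interval 2.43 to 3.28). The other related receptor past the minimum, the VEGF receptor gene Flt1, was lower (1.25 against 1.83 FPKM, 0.685, 0.592 to 0.792). Flt3 was at 0 in both libraries and Kit had 8 reads in each.

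The ligands of these relatives moved in both directions. Kitl, which encodes stem cell factor, had 23.1 FPKM with PRP and 8.69 FPKM in the control (ratio 2.66, 95% interval 2.46 to 2.87). Pgf, which encodes placental growth factor, had 3.14 FPKM against 0.928 FPKM (3.39, 2.44 to 4.79), and Csf1, which encodes the macrophage growth factor M-CSF, 331 FPKM against 211 FPKM (1.56, 1.54 to 1.59). Vegfd had 8.71 FPKM against 22.9 FPKM (0.380, 0.338 to 0.427) and Vegfb 5.61 FPKM against 7.72 FPKM (0.726, 0.592 to 0.890). Vegfc had 1.68 FPKM against 1.16 FPKM (1.45, 1.003 to 2.11). Vegfa had 90.4 FPKM against 89.6 FPKM, with an interval that held 1 (0.976 to 1.04). Like the PDGF ligands, the VEGF ligands thus held members on both sides of 1.

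**Figure D4:**
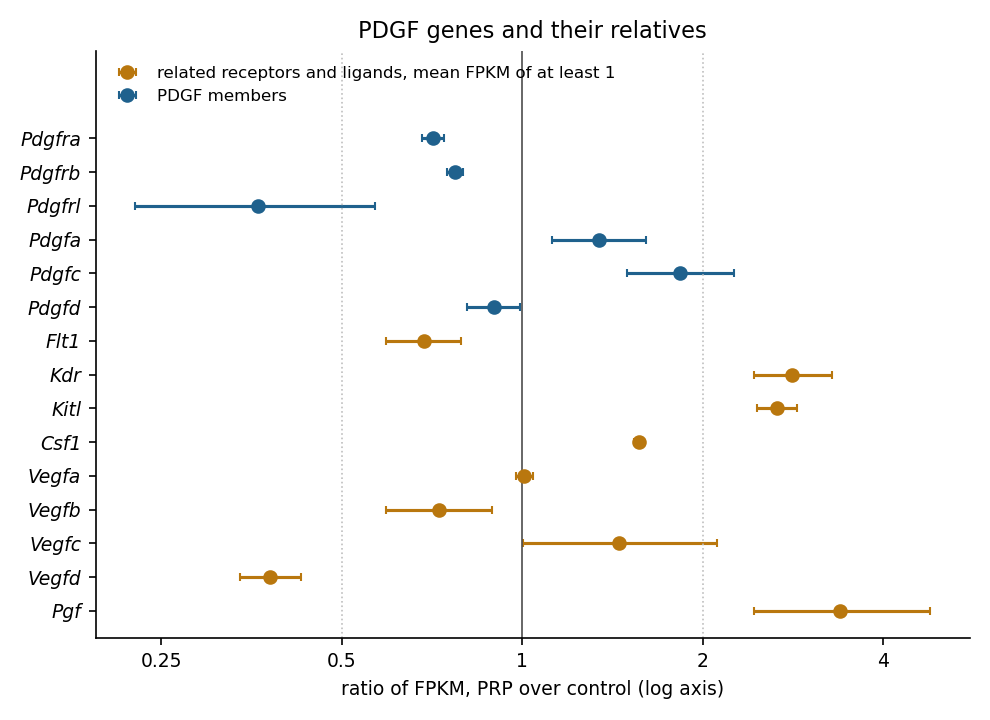
Ratio of FPKM, PRP over control (log axis), for the 6 PDGF genes above the floor of 3 fragments (blue) and the 9 related receptors and ligands past the minimum (ochre), 1 library per group. Bars are exact 95% Clopper-Pearson intervals of the counting error, the solid line marks 1 and the dotted lines 0.5 and 2. Pdgfra, Pdgfrb, Pdgfrl and Pdgfd lie below 1, Pdgfa and Pdgfc above 1, and Kdr, Kitl and Pgf above 2.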

How the data were processed

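Libraries came from TRIzol-extracted RNA and a stranded mRNA kit. The authors trimmed reads with fastp 0.23.4, mapped them to mm10 with STAR 2.5.3a, counted with featureCounts and deposited FPKM per gene. The annotation release, the FPKM formula and the strand setting are not given in the sources used here. With GENCODE M21 exon lengths, 26405 of 28160 genes above 0 (93.8%) gave read numbers within 0.001 of a whole number in both libraries, for totals of 40120843 assigned reads (PRP) and 34139741 (control). Reads were divided by 2, since even numbers were in excess (79.3% and 80.3% of genes with up to 8 reads). The mitochondrial share of all FPKM was 2.06% (PRP) and 3.70% (control).

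Differences are of log2(FPKM + 1), which understates low genes, for genes whose mean FPKM reached 1. With 1 library per group no count test was run. Members and lists were chosen with earlier results of these data known. Named were all members, in each list up to 3 rises and 3 falls of at least 1.5-fold by FPKM whose interval excludes 1, marker genes, and 2 nearest genes per receptor kinase. Plat, Plau, Nrp1, Srf, Vegfa, Vegfb, Vegfc, Kit, Flt1, Flt3 and the overlapping genes were named after their values were seen. One myogenic marker (Myf5) was not analysed here. A planned comparison of the member proteins was not run. Some genes that the rule names are not reported here. No PCR duplicates were removed here, and the intervals do not allow for them. The steps were tested on simulated data and used Python 3.11.15, NumPy 2.4.6, pandas 2.3.3, SciPy 1.17.1 and matplotlib 3.10.9.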

Additional observations from a re-analysis of the deposited data

How the results depend on the processing

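The 6 members with enough reads had a main value and 5 alternatives each, and in none of these 30 did the direction change. In 23 the value stayed within its counting interval. A pseudocount of 0.1 gave -1.29 for Pdgfrl and 0.84 for Pdgfc, and a pseudocount of 5 gave -0.41 for Pdgfra, -0.20 for Pdgfrl and 0.27 for Pdgfc, on the log2 scale. Rescaling to a common sum gave -1.02 for Pdgfrl, and -1.12 when mitochondrial genes and the 50 most abundant genes were left out of the sum. Rescaling multiplied the values by 2.92 and 2.95, and by 3.90 and 3.99 without those genes, which makes the pseudocount of 1 relatively smaller. All 6 intervals excluded 1, and so did 6 with reads as counted in place of reads divided by 2. At least 2-fold changed were 379 genes, and 739 and 113 at the lower and the higher pseudocount, 596 and 638 under both rescalings, 210 when the minimum was 5 FPKM and 1436 at 1.5-fold. No member past the minimum reached 2-fold under any alternative. Of 48 list medians under alternatives 3 changed sign, those of the adaptors (-0.01 and -0.12) and of the phosphatases and ligases (0.06), and the median of the related ligands went from 0.31 to 0.01 at a minimum of 5 FPKM. No paired analysis was possible because a single library stands for each treatment, and no replicate could be left out. The depth limits Pdgfb and Pdgfrl most.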
